A study of Homo sapiens with 15 samples.

Results

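The 43 genes described here encode the machinery of mitosis: Aurora kinases and the chromosomal passenger complex, kinetochore and checkpoint proteins, mitotic kinesins, the kinases and cyclins of mitotic entry, the anaphase and cytokinesis machinery, and the transcription factor FOXM1. They were picked by gene symbol from known function, with earlier results of these data known, as 43 of the 26485 gene symbols in the count tables, and all 43 passed the low-count filter in every fit. RNA was sequenced from PSN-1, an established human pancreatic ductal adenocarcinoma (PDAC) cell line, in a pair of experiments. In the siRNA experiment the cells received siMondoA, siMLX or siControl, and in the drug experiment SBI-477, an inhibitor of MondoA, or its vehicle DMSO. Each of the 5 groups had 3 libraries and was collected after 72 h, and neither a dose nor an siRNA sequence was given, so each knockdown was a pool of cells transfected with an siRNA of unstated design. Nothing in the labels says that the replicates came from separate cultures, so p-values measure the spread between these libraries only. The comparisons ask which mitotic genes change when MondoA or its partner MLX is depleted, and whether the inhibitor gives the same changes.

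MondoA (gene MLXIP) and MLX form a heterodimer that binds E-box-like elements of glucose-responsive promoters, of which TXNIP is the best known. Mitotic genes are transcribed late in the cell cycle. In quiescent and early cycling cells the DREAM complex, built from a pocket protein (RBL1 or RBL2), E2F4 and the MuvB core, represses them through a cell cycle genes homology region (CHR) close to the start site. Later the MuvB core joins B-MYB and FOXM1 and activates the same promoters, often together with NF-Y bound at CCAAT boxes. Because the transcripts peak around division, their level in a culture follows the share of dividing cells, and in bulk RNA more dividing cells and more transcript per dividing cell cannot be told apart.

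Promoter letters were available for 36 of the 43 members in the RefSeq promoter table for GRCh38.p14, which spans 250 bases before to 50 bases after each start. AURKA, TPX2, BIRC5, BUB3, TTK, UBE2C and FOXM1 were not among them. A CHR, searched on both strands as TTTGAA, with TTCGAA as a variant, was found in 25 of the 36 (69.4%), against 16.6% of all 27305 promoters. A CCAAT box was found in 28 of the 36 (77.8%), against 35.7% of all promoters, and both elements together in 21 (58.3%), against 6.58%. An E2F site, searched as TTGGCGC, with TTCCCGC as a second form, was in 7 members (19.4%), against 9.33% of all promoters. The canonical E-box CACGTG was in 5 members, CENPE, CENPF, CCNB1, PLK1 and ANLN (13.9%, against 7.43% of all promoters). DNA replication and G1/S genes, listed for contrast, had a CHR in 2 of 33 promoters (6.06%) and an E2F site in 22 of 33 (66.7%). They had a CCAAT box in 19 of 33 (57.6%) and the E-box in 4 of 33 (12.1%). Among the members, a CHR was in 8 of the 15 promoters of genes that rose after siMondoA, described below, and in 17 of the 21 others.

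The 150 bases before the start are shown for 7 members because they place the CHR and CCAAT boxes relative to each other and include members that rose and members that did not. Capitals mark the CHR, the CCAAT box on either strand and the E-box. CENPA, CDCA8, CCNB2 and KIF4A rose after both knockdowns and have a CHR whose first base lies at -18, -23, -29 and -34. CENPE also rose after both and has no CHR but the E-box, first base at -130. PLK1 (CHR at -29) and CDC20 (CHR at -65) have the same elements and did not pass the edgeR test described below after either knockdown. This split depends on the test. In the authors' deposited results PLK1 passed after siMondoA (0.49, adjusted p = 0.0378) and KIF4A did not (0.41, adjusted p = 0.0851).
CENPA: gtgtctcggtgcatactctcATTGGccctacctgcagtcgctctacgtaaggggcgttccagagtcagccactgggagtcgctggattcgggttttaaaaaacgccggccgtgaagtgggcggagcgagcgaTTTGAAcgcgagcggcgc
CDCA8: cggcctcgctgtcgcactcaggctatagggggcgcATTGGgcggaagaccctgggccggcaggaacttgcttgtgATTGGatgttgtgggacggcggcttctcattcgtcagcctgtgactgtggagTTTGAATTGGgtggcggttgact
CCNB2: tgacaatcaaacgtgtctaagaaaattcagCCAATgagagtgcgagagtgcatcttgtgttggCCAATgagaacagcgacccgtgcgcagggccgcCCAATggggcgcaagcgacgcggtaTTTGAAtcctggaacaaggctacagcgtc
KIF4A: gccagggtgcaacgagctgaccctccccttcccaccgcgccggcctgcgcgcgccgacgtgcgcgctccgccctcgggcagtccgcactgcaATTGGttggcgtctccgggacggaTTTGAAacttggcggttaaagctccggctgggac
CENPE: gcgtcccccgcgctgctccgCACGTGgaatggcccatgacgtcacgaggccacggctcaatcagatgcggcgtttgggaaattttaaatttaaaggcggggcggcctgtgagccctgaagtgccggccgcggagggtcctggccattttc
PLK1: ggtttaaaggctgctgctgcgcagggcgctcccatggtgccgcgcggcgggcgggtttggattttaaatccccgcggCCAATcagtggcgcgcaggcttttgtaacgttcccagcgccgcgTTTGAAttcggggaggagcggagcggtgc
CDC20: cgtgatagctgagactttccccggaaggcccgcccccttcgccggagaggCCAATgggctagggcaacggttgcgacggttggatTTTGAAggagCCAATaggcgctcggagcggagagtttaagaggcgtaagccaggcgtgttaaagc
In GRCh38.p14 these stretches lie at chr2:26785906-26786055 (CENPA, plus strand), chr1:37692366-37692515 (CDCA8, plus strand), chr15:59104996-59105145 (CCNB2, plus strand), chrX:70289954-70290103 (KIF4A, plus strand), chr4:103198344-103198493 (CENPE, minus strand), chr16:23678739-23678888 (PLK1, plus strand) and chr1:43358831-43358980 (CDC20, plus strand). In CDCA8 the CHR and the last CCAAT box share the base at -18. A match is a string of letters and says nothing on whether a factor was bound.

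**Figure D1:**
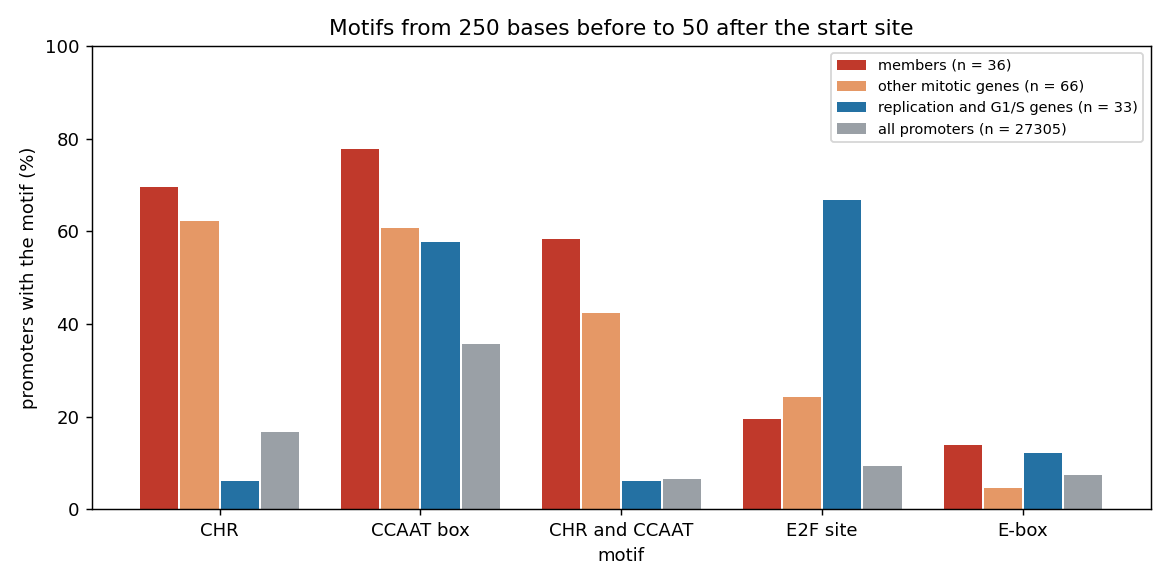
Share of promoters (vertical axis, %) that hold each motif (horizontal axis) from 250 bases before to 50 after the start, for the 36 members, 66 other mitotic genes, 33 replication and G1/S genes and all 27305 promoters. The CHR was in 69.4% of members and 6.06% of replication genes, and the E2F site in 19.4% of members and 66.7% of replication genes.

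Library totals were 11227343 to 14731691 counts in the siRNA experiment and 23315440 to 30480362 in the drug experiment, and log2 profiles within a group correlated at 0.971 to 0.994. MLXIP had 22.6, 23.4 and 15.7 CPM (the usual counts relative to library size, with sizes scaled by TMM) in siMondoA libraries, against 83.6, 65.8 and 88.7 CPM in siControl libraries. MLX had 11.9, 7.15 and 7.70 CPM in siMLX libraries, against 53.4, 58.8 and 53.0 CPM in siControl libraries. TXNIP had 158, 230 and 57.6 CPM after siMondoA and 172, 511 and 93.3 CPM after siMLX, against 783, 786 and 519 CPM in siControl. It passed the edgeR test described below after siMondoA (edgeR adjusted p = 0.0221) and not after siMLX (edgeR adjusted p = 0.154). All 8 epithelial markers averaged at least 1 CPM in every group. Of 5 immune markers only CD68 and CD14 did (PTPRC was at most 0.07 CPM), of 3 endothelial markers only PECAM1, and of 5 acinar and endocrine markers PRSS1, with CPA1 in siControl. The 4 fibroblast markers, LUM the highest, summed to 105 to 172 CPM in siMondoA, 168 to 278 CPM in siMLX and 181 to 261 CPM in siControl libraries, and their part in the results was not tested. The drug libraries carry a doubt. TXNIP had 74.6, 121 and 41.5 CPM in libraries labelled SBI-477 and 145, 39.2 and 204 CPM in those labelled DMSO, so replicate 2 of each group ran against the other 2. Fold changes in the authors' deposited table for the drug were matched by DESeq2 with a median absolute difference of 9.34e-08 when the labels of replicate 2 were exchanged, and of 0.196 as labelled. Libraries were kept as labelled, and drug results are given with and without replicate 2. Over 10% of the exonic bases of PRC1, FOXM1, PLK1 and BUB1B (58.4%, 15.9%, 12.5% and 10.2%) also belong to another annotated gene. How reads on shared bases were counted is not known, so the counts of these genes are uncertain. PTTG1 has the near-identical copies PTTG2 and PTTG3P, both listed at 0, so its count is also uncertain.

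After siMondoA, 19 of the 43 members rose and none fell, against 14.2% and 12.9% of the 13001 genes tested (edgeR quasi-likelihood test, Benjamini-Hochberg adjusted p under 0.05). At an unadjusted p under 0.05, 26 members were higher and 2 lower, beside 21.6% and 19.8% of genes. DESeq2 called 20 higher and 1 lower (MAD2L1), beside 14% and 12.9% of genes. The median log2 fold change of the members was 0.42, beside 0.00 for all genes, and 37 of 43 were above 0. After siMLX, 13 rose and none fell, against 3.72% and 4.69% of the genes tested. In this fit all 43 fold changes were above 0, with a median of 0.43 beside 0.02 for all genes. The authors' deposited table has SPC24 (-0.005) and MAD2L1 (-0.021) just below 0 after siMLX. At an unadjusted p under 0.05, 25 members were higher and none lower after siMLX, beside 13% and 12.9% of genes, and DESeq2 called 16 higher and none lower, beside 5.74% and 6.86%. In 26 members every siMondoA library lay above every siControl library, and in 2 below, against 24.4% and 22.8% of genes. For siMLX this held for 20 members above and none below, against 16.5% and 16.9% of genes. The comparisons share the siControl libraries, so their values are set side by side only.

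**Figure D2:**
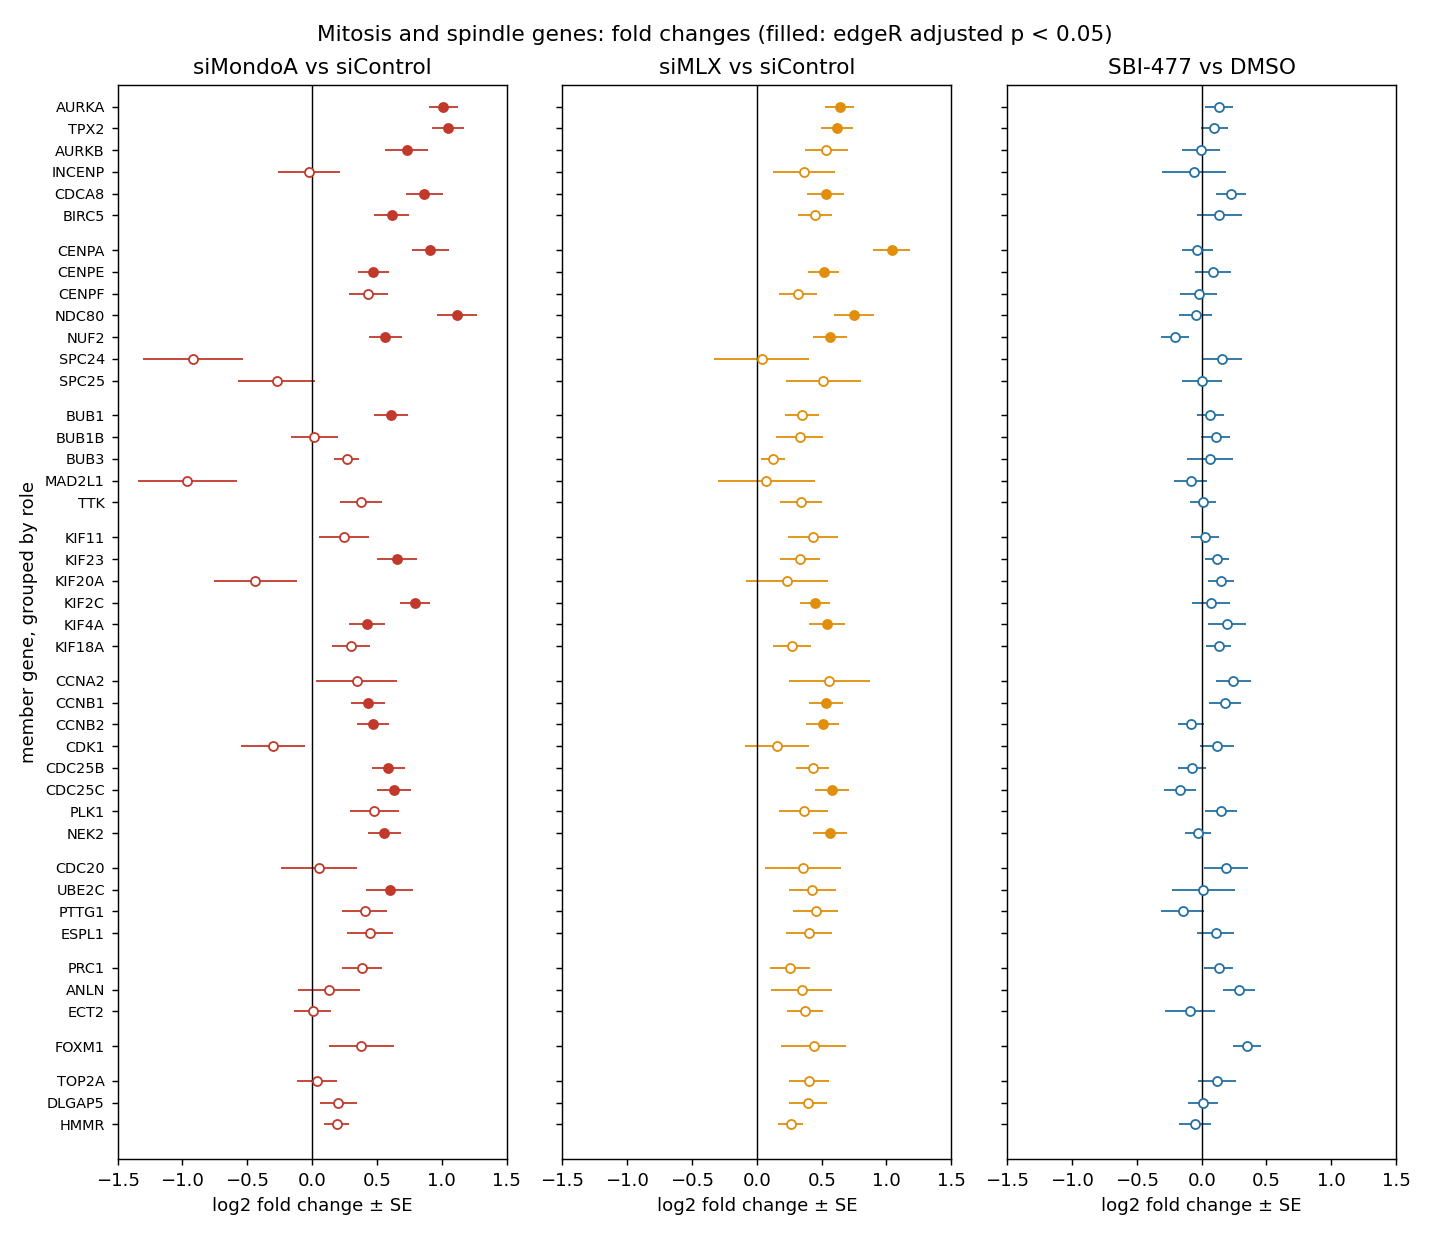
Log2 fold change (horizontal axis, ± SE) of each member (vertical axis, grouped by role) for siMondoA against siControl, siMLX against siControl and SBI-477 against DMSO, as labelled. Filled points passed the edgeR test: 19 members after siMondoA, 13 after siMLX and none after SBI-477.

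Aurora kinases and the passenger complex gave 5 of 6 members that rose after siMondoA and 3 of 6 after siMLX, beside 14.2% and 3.72% of all genes. AURKA, the kinase of centrosomes and spindle poles, had 316, 341 and 278 CPM in siMondoA libraries and 229, 230 and 263 CPM in siMLX libraries, against 150, 149 and 164 CPM in siControl libraries. The 3 groups did not overlap, in the order siMondoA, siMLX, siControl. Relative to siControl, AURKA changed by 1.01 ± 0.11 on the log2 scale (± SE here and below) after siMondoA (edgeR adjusted p = 0.000462) and by 0.64 ± 0.11 after siMLX (edgeR adjusted p = 0.00968). TPX2, which activates AURKA on spindle microtubules, had 240, 290 and 237 CPM after siMondoA and 168, 205 and 194 CPM after siMLX, against 121, 115 and 134 CPM in siControl libraries. Its groups were in the same order, again without overlap. The TPX2 changes were 1.05 ± 0.12 after siMondoA (edgeR adjusted p = 0.000594) and 0.62 ± 0.12 after siMLX (edgeR adjusted p = 0.0150).

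The passenger complex corrects faulty kinetochore attachments. Its borealin subunit CDCA8 had 79.1, 75.8 and 64.7 CPM after siMondoA and 64.9, 48.5 and 60.8 CPM after siMLX, against 39.9, 35.8 and 44.7 CPM in siControl libraries. Both knockdowns lay above the controls, by 0.87 ± 0.14 (edgeR adjusted p = 0.00287) after siMondoA and 0.53 ± 0.14 (edgeR adjusted p = 0.0460) after siMLX. BIRC5, its survivin subunit, had 115, 101 and 93.6 CPM after siMondoA and 91.5, 82.4 and 102 CPM after siMLX, against 67.9, 57.7 and 76.3 CPM in siControl libraries. BIRC5 rose after siMondoA (0.61 ± 0.13, edgeR adjusted p = 0.00962), and its siMLX value of 0.45 ± 0.13 had an edgeR adjusted p of 0.0643, or 0.0346 with the replicate number as a block, where it passed. AURKB, the kinase of the complex, rose by 0.73 ± 0.16 after siMondoA (edgeR adjusted p = 0.0107), while its siMLX value was 0.54 ± 0.16 (edgeR adjusted p = 0.0708, and 0.0418 with the replicate block, where it passed). The scaffold INCENP had -0.02 ± 0.24 after siMondoA and 0.36 ± 0.24 after siMLX, and its groups overlapped.

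At centromeres and kinetochores, 4 of 7 members rose after siMondoA and 4 after siMLX, beside 14.2% and 3.72% of all genes. They were CENPA, CENPE, NDC80 and NUF2 in each case. CENPA, the histone H3 variant that marks the centromere, had 27.2, 23.9 and 22.4 CPM after siMondoA and 24.9, 26.2 and 29.4 CPM after siMLX, against 14.4, 11.4 and 13.3 CPM in siControl libraries. The knockdown groups overlapped each other and both lay clear of the controls. CENPA rose by 0.91 ± 0.14 after siMondoA (edgeR adjusted p = 0.00227) and by 1.04 ± 0.14 after siMLX (edgeR adjusted p = 0.00310), the highest member fold change after siMLX. NDC80, which grips microtubules as a heterodimer with NUF2, had 63.7, 72.4 and 64.3 CPM after siMondoA and 44.0, 63.8 and 47.4 CPM after siMLX, against 28.3, 29.8 and 34.0 CPM in siControl libraries. Replicate 2 of siMLX stood near the siMondoA libraries and the other 2 lay between the groups. NDC80 rose by 1.12 ± 0.15 after siMondoA (edgeR adjusted p = 0.00131) and by 0.75 ± 0.15 after siMLX (edgeR adjusted p = 0.0162).

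NUF2 had 59.4, 46.5 and 62.8 CPM after siMondoA and 55.2, 55.2 and 58.0 CPM after siMLX, against 36.5, 36.3 and 41.1 CPM in siControl libraries. Its fold changes were nearly equal, 0.57 ± 0.13 (edgeR adjusted p = 0.0114) after siMondoA and 0.56 ± 0.13 (edgeR adjusted p = 0.0267) after siMLX. CENPE, the kinesin that carries chromosomes to the metaphase plate, had 93.1, 83.1 and 97.8 CPM after siMondoA and 89.9, 88.8 and 104 CPM after siMLX, against 58.9, 64.5 and 73.9 CPM in siControl libraries. Both knockdowns lay above the controls, siMondoA by 0.47 ± 0.12 (edgeR adjusted p = 0.0171) and siMLX by 0.52 ± 0.12 (edgeR adjusted p = 0.0277). CENPF, a large outer kinetochore protein, had 0.43 ± 0.15 after siMondoA (edgeR adjusted p = 0.0528) and 0.32 ± 0.15 after siMLX (edgeR adjusted p = 0.208). For CENPF the authors' deposited table has 0.44 after siMondoA with an adjusted p of 0.0385, and 0.31 after siMLX with 0.163.

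SPC24 and SPC25 form the other end of the NDC80 complex, toward the inner kinetochore, and neither passed the test after either knockdown. SPC24 had 3.44, 1.19 and 1.84 CPM after siMondoA and 5.57, 2.62 and 4.42 CPM after siMLX, against 3.73, 3.64 and 4.83 CPM in siControl libraries. Every siMondoA library lay below every siControl library, but by margins that differed widely, and the fold change of -0.91 ± 0.39 had an edgeR adjusted p of 0.0999. SPC25 had -0.27 ± 0.30 after siMondoA and 0.51 ± 0.29 after siMLX, without passing either test. Per kilobase of exon, SPC24 was the lowest member in siControl libraries, at a mean of 1.43 CPM per kb.

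Of 5 spindle checkpoint members, which hold anaphase until all kinetochores are attached, BUB1 passed after siMondoA and none passed after siMLX. These counts are near the shares of all genes that rose, 14.2% and 3.72%. BUB1, a checkpoint kinase, had 127, 121 and 109 CPM after siMondoA and 104, 82.9 and 110 CPM after siMLX, against 77.5, 70.2 and 85.8 CPM in siControl libraries. The siMondoA group lay above the controls (0.61 ± 0.13, edgeR adjusted p = 0.00879) and the siMLX group overlapped them (0.35 ± 0.13, edgeR adjusted p = 0.122). MAD2L1, whose product inhibits CDC20, had 54.7, 20.03 and 34.7 CPM after siMondoA and 91.4, 37.5 and 95.4 CPM after siMLX, against 62.6, 64.2 and 86.1 CPM in siControl libraries. All siMondoA libraries were below the controls, and siMLX had 2 libraries above them and replicate 2 below. The MAD2L1 value after siMondoA was -0.96 ± 0.38 (edgeR adjusted p = 0.0836), the lowest of the 43. DESeq2 called MAD2L1 lower (-0.97, adjusted p = 0.0319), as did edgeR on only the 6 libraries compared (adjusted p = 0.0370), and the authors' deposited table has -1.06 with an adjusted p of 0.000179. BUB1B, BUB3 and the kinase TTK had 0.02 to 0.38 after siMondoA and 0.12 to 0.34 after siMLX, and none passed.

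**Figure D3:**
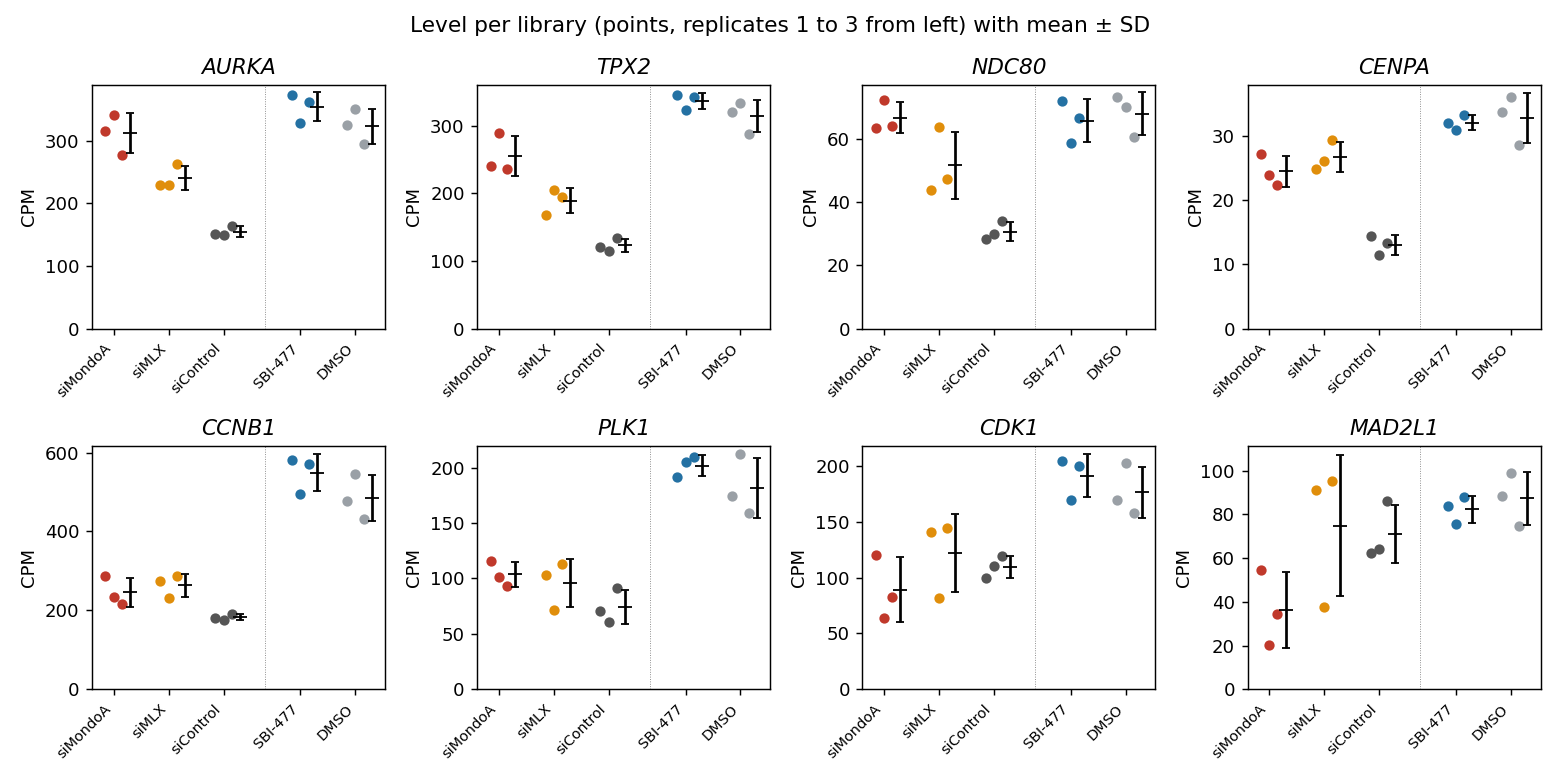
CPM of 8 members in every library (points) with the mean ± SD of the 3 libraries, for siMondoA, siMLX and siControl left of the dotted line and SBI-477 and DMSO right of it; the experiments were normalized separately. AURKA, TPX2, NDC80, CENPA and CCNB1 lie above siControl in every knockdown library, and CDK1 and MAD2L1 spread widely within the knockdown groups.

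Among 6 mitotic kinesins, 3 rose after siMondoA and 2 after siMLX, beside 14.2% and 3.72% of all genes. KIF2C, the microtubule depolymerase MCAK, had 135, 117 and 115 CPM after siMondoA and 93.7, 88.8 and 106 CPM after siMLX, against 69.8, 64.0 and 77.6 CPM in siControl libraries. The order was siMondoA, siMLX, siControl without overlap, with changes of 0.79 ± 0.12 after siMondoA (edgeR adjusted p = 0.00172) and 0.45 ± 0.12 after siMLX (edgeR adjusted p = 0.0413). The chromokinesin KIF4A rose by 0.42 ± 0.14 after siMondoA (edgeR adjusted p = 0.0456) and 0.54 ± 0.14 after siMLX (edgeR adjusted p = 0.0405). For KIF4A the authors' deposited table has 0.41 after siMondoA with an adjusted p of 0.0851, and 0.54 after siMLX with 0.00866. KIF23, the motor of the central spindle, rose after siMondoA by 0.65 ± 0.15 (edgeR adjusted p = 0.0134) and had 0.33 ± 0.15 after siMLX (edgeR adjusted p = 0.205). KIF11, which pushes spindle poles apart, and KIF18A, which dampens chromosome oscillation, had 0.24 to 0.43 in the 2 comparisons without passing. KIF20A, a cytokinesis motor, had 55.0, 23.8 and 25.5 CPM after siMondoA, against 51.1, 42.9 and 47.3 CPM in siControl libraries, so replicate 1 lay above the controls and the others below.

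The regulators of mitotic entry gave 5 of 8 members that rose after siMondoA and 4 of 8 after siMLX, beside 14.2% and 3.72% of all genes. CCNB1, the main mitotic cyclin, had 287, 235 and 215 CPM after siMondoA and 274, 231 and 287 CPM after siMLX, against 180, 176 and 191 CPM in siControl libraries. Its changes were 0.43 ± 0.13 (edgeR adjusted p = 0.0336) after siMondoA and 0.53 ± 0.13 (edgeR adjusted p = 0.0343) after siMLX, with no overlap with the controls. CCNB2, a second B-type cyclin, had 84.6, 66.4 and 76.7 CPM after siMondoA and 83.7, 67.4 and 82.4 CPM after siMLX, against 54.1, 53.0 and 57.1 CPM in siControl libraries. CCNB2 rose by 0.47 ± 0.12 after siMondoA (edgeR adjusted p = 0.0197) and by 0.51 ± 0.12 after siMLX (edgeR adjusted p = 0.0341), again clear of the controls. Their kinase partner CDK1 had 121, 63.3 and 83.0 CPM after siMondoA and 141, 81.5 and 144 CPM after siMLX, against 99.2, 110 and 119 CPM in siControl libraries. The CDK1 groups overlapped, with -0.30 ± 0.25 after siMondoA (edgeR adjusted p = 0.389) and 0.16 ± 0.25 after siMLX (edgeR adjusted p = 0.740).

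CDC25B and CDC25C are the phosphatases that switch CDK1 on. CDC25B had 341, 289 and 298 CPM after siMondoA and 251, 312 and 270 CPM after siMLX, against 227, 180 and 211 CPM in siControl libraries. It rose by 0.59 ± 0.13 after siMondoA (edgeR adjusted p = 0.00959) and had 0.43 ± 0.13 after siMLX (edgeR adjusted p = 0.0633). CDC25C had 25.8, 24.2 and 23.3 CPM after siMondoA and 24.1, 23.6 and 22.9 CPM after siMLX, against 15.9, 13.6 and 17.7 CPM in siControl libraries. Both knockdown groups were tight and above the controls, siMondoA by 0.63 ± 0.13 (edgeR adjusted p = 0.00781) and siMLX by 0.58 ± 0.13 (edgeR adjusted p = 0.0257). NEK2, the kinase that parts the centrosomes, had 58.5, 42.2 and 51.6 CPM after siMondoA and 53.1, 50.1 and 49.99 CPM after siMLX, against 33.9, 33.3 and 36.1 CPM in siControl libraries. No knockdown library overlapped the controls, and NEK2 rose by 0.56 ± 0.13 after siMondoA (edgeR adjusted p = 0.0122) and 0.57 ± 0.13 after siMLX (edgeR adjusted p = 0.0267). PLK1, a kinase used throughout mitosis, had 116, 102 and 93.6 CPM after siMondoA and 103, 71.3 and 113 CPM after siMLX, against 70.7, 61.0 and 91.3 CPM in siControl libraries. Its siMondoA libraries lay just above the controls, but 0.48 ± 0.19 did not pass (edgeR adjusted p = 0.0818), nor did 0.36 ± 0.19 after siMLX (edgeR adjusted p = 0.257). For PLK1 the authors' deposited table has 0.49 after siMondoA with an adjusted p of 0.0378, and 0.36 after siMLX with 0.110. CCNA2, the cyclin of S phase and early mitosis, had a siMondoA value of 0.35 ± 0.31 and a siMLX value of 0.56 ± 0.31 and did not pass.

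In the anaphase group, UBE2C, the ubiquitin-conjugating enzyme of the anaphase-promoting complex, rose after siMondoA by 0.60 ± 0.18 (edgeR adjusted p = 0.0336), with 0.43 ± 0.18 after siMLX (edgeR adjusted p = 0.167). Securin (PTTG1) and separase (ESPL1), which guard and cut cohesin, had 0.41 ± 0.17 and 0.45 ± 0.18 after siMondoA without passing in the main fit. After siMLX, PTTG1 passed with the replicate block (0.44 ± 0.12, edgeR adjusted p = 0.0464) and not in the main fit. For PTTG1 after siMLX the authors' deposited table has 0.44 with an adjusted p of 0.0439. CDC20, the activator of that complex, had 162, 102 and 97.4 CPM after siMondoA and 166, 83.6 and 197 CPM after siMLX, against 119, 96.1 and 133 CPM in siControl libraries, and its groups overlapped in both comparisons. None of the 3 cytokinesis members passed, beside 14.2% of all genes that rose after siMondoA and 3.72% after siMLX. The midzone bundler PRC1 had 0.39 ± 0.15 after siMondoA and 0.26 ± 0.15 after siMLX. The contractile ring protein ANLN had 0.13 ± 0.24 after siMondoA and 0.34 ± 0.24 after siMLX, and the RhoA exchange factor ECT2 0.00 ± 0.14 after siMondoA and 0.37 ± 0.14 after siMLX. Topoisomerase TOP2A and the spindle proteins DLGAP5 and HMMR had 0.04 to 0.20 after siMondoA and 0.26 to 0.40 after siMLX, also without passing, except that DLGAP5 passed after siMLX with the replicate block (0.38 ± 0.11, edgeR adjusted p = 0.0471).

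FOXM1, the transcription factor of many of these genes, had 52.0, 32.9 and 40.2 CPM after siMondoA and 46.7, 32.3 and 51.6 CPM after siMLX, against 34.7, 21.8 and 39.8 CPM in siControl libraries. The groups overlapped, with 0.38 ± 0.25 (edgeR adjusted p = 0.279) after siMondoA and 0.44 ± 0.25 (edgeR adjusted p = 0.299) after siMLX. MKI67, a proliferation marker outside the 43, had 140, 122 and 117 CPM after siMondoA and 128, 93.8 and 140 CPM after siMLX, against 62.1, 63.2 and 96.7 CPM in siControl libraries. It rose after siMondoA (0.77 ± 0.19, edgeR adjusted p = 0.0171), and its siMLX value was 0.70 ± 0.19 (edgeR adjusted p = 0.0508). By position, all 4 members on chromosome 20 (AURKA, TPX2, CDC25B and UBE2C) rose after siMondoA, beside 12.7% of the 363 tested genes of that chromosome and 19 of all 43 members. After siMLX 2 of these 4 rose, beside 5.51% of those genes. This chromosome was picked after its values were seen, and a part of position was not tested.

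Libraries of the same group did not shift equally. The median of the 43 members relative to the siControl mean was 0.63, 0.29 and 0.36 (log2) in siMondoA libraries, 0.49, 0.11 and 0.60 in siMLX libraries and -0.04, -0.10 and 0.13 in siControl libraries. Members above the control mean numbered 41, 29 and 35 in siMondoA libraries, 43, 30 and 43 in siMLX libraries and 11, 6 and 43 in siControl libraries, so replicate 3 of siControl was high throughout. Replicate 2 was the lowest of its group in siMondoA, siMLX and siControl alike. In siMondoA replicate 2, MAD2L1, SPC24, KIF20A, SPC25 and CDK1 lay furthest below the control mean, while AURKA, TPX2 and NDC80 were at the highest of the 9 siRNA libraries. The replication and G1/S list had medians of 0.46, -0.70 and -0.20 in siMondoA libraries, 0.26, -0.24 and 0.46 in siMLX libraries and -0.04, -0.10 and 0.15 in siControl libraries, so it moved with the same replicates. CHAC1, a stress-response gene, had 80.5, 106 and 72.8 CPM in siMondoA libraries and 0.707, 102 and 1.83 CPM in siMLX libraries, against 0.711, 1.40 and 0.717 CPM in siControl libraries. It was high in replicate 2 of siMLX and in all siMondoA libraries, and its part in the mitotic values was not tested.

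**Figure D4:**
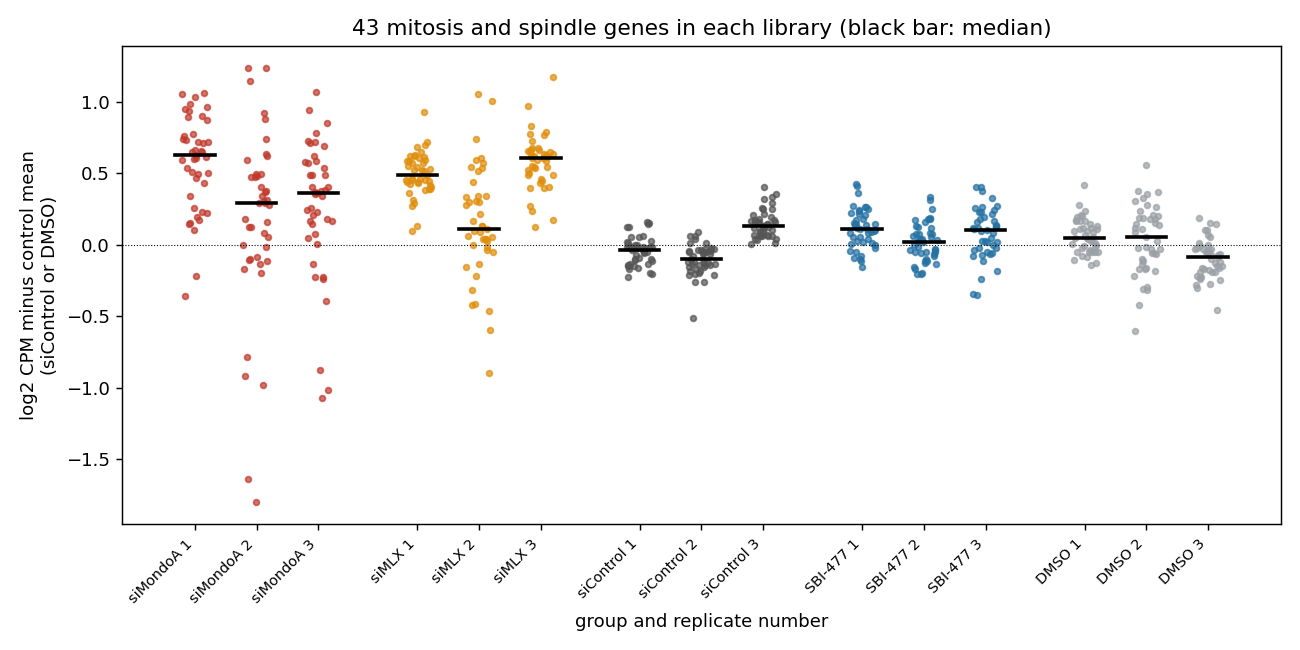
Log2 CPM of each of the 43 members (points) minus its mean in siControl or DMSO libraries (vertical axis), for every library (horizontal axis), with the median as a black bar. Medians were 0.63, 0.29 and 0.36 in siMondoA libraries, 0.49, 0.11 and 0.60 in siMLX libraries, and between -0.10 and 0.13 in the other 3 groups.

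**Figure D5:**
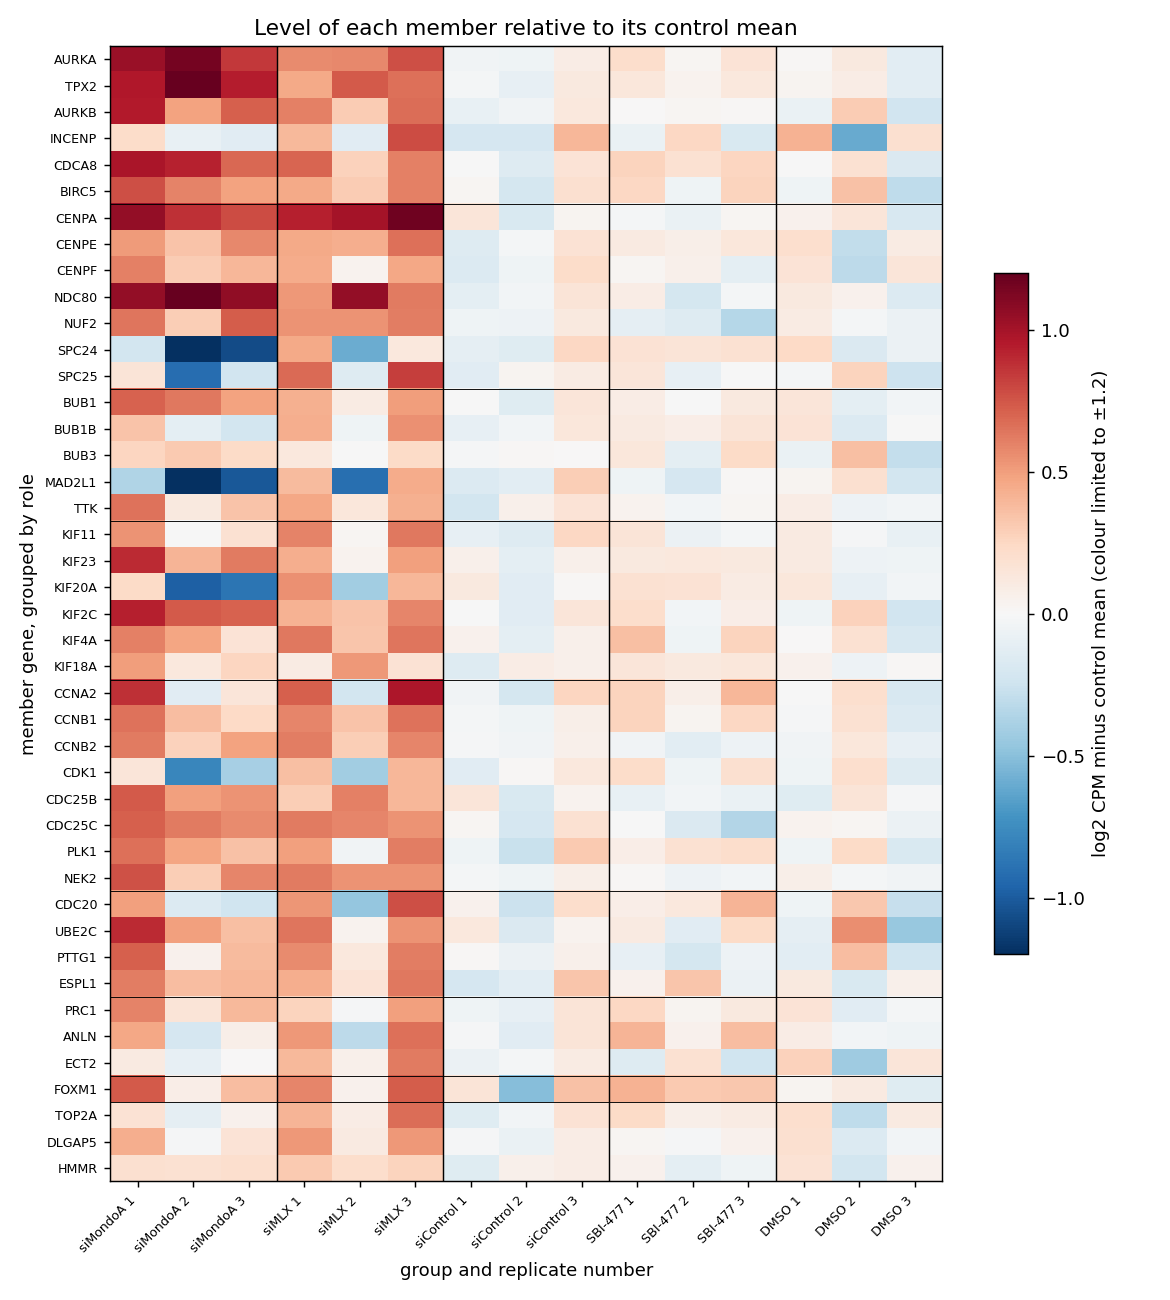
Log2 CPM minus the control mean (colour, limited to 1.2 in either direction) for each member (rows, by role) in every library (columns). AURKA, TPX2, CENPA and NDC80 are high in all 6 knockdown libraries, and MAD2L1, SPC24, KIF20A and CDK1 are low in replicates 2 and 3 of siMondoA and in replicate 2 of siMLX.

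Leaving out single libraries changed many calls, while called members kept their direction. After siMondoA, 11 of the 19 members stayed called whichever of the 6 compared libraries was left out and in the 6 other alternatives run: AURKA, TPX2, AURKB, CDCA8, BIRC5, CENPA, NDC80, BUB1, KIF2C, CDC25B and CDC25C. These 11 were also the whole count without siControl replicate 2, when 6.35% of all genes rose. Without siMondoA replicate 1, 15 members rose and 3 fell, beside 15.5% and 13.9% of all genes: SPC24 by -1.42 ± 0.38 (edgeR adjusted p = 0.01999), MAD2L1 by -1.37 ± 0.38 (edgeR adjusted p = 0.0226) and KIF20A by -0.93 ± 0.25 (edgeR adjusted p = 0.0195). After siMLX, CENPA was the only member that stayed called whichever of the 6 compared libraries was left out. Over all alternatives run for siMLX, the fold change of AURKA was 0.57 to 0.69 (adjusted p up to 0.0534), that of NUF2 0.53 to 0.63 (adjusted p up to 0.107) and that of KIF2C 0.37 to 0.52 (adjusted p up to 0.156). The siMLX count was 1 without siControl replicate 1 or replicate 2 (0.789% of genes rose in each), where the members' medians were 0.38 and 0.35. It was 6 without siControl replicate 3 (1.4%), 5 without siMLX replicate 1 (2.87%) and 3 without siMLX replicate 3 (1.47%). It was 18 without siMLX replicate 2, when 2.59% of genes rose. With the replicate number as a block, siMLX gave 17 (6.52% of genes), adding AURKB, BIRC5, PTTG1 and DLGAP5.

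Set directly against siMLX, siMondoA left 1 member called. TPX2 was higher after siMondoA by 0.43 ± 0.12 (edgeR adjusted p = 0.0421), when 6.66% of all genes were higher and 6.21% lower. AURKA (0.37 ± 0.11, edgeR adjusted p = 0.0533) and KIF2C (0.35 ± 0.12, edgeR adjusted p = 0.0710) came next. At the other end were MAD2L1 (-1.03 ± 0.38, edgeR adjusted p = 0.0987), SPC25 (-0.79 ± 0.29, edgeR adjusted p = 0.103) and SPC24 (-0.95 ± 0.39, edgeR adjusted p = 0.127). Without siMLX replicate 2, 2 members were higher after siMondoA (TPX2 and NDC80) and 7 lower (SPC24, SPC25, MAD2L1, KIF20A, CDK1, ECT2 and TOP2A), beside 12.6% and 9.91% of all genes. In that fit MAD2L1 had -1.35 ± 0.30 (edgeR adjusted p = 0.0112) and NDC80 0.55 ± 0.13 (edgeR adjusted p = 0.0133). Without siMondoA replicate 1, 1 member was higher and 4 lower, beside 16.2% of all genes called in either direction (8.33% higher). With any of the remaining compared libraries left out the count was 0, beside 5.08% to 7.54% of all genes called.

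With SBI-477, as the libraries were labelled, none of the 43 members passed the edgeR test, as for 0% of the 14023 genes tested. DESeq2 also called none, and at an unadjusted p under 0.05 edgeR gave 2 members, both higher, and 409 genes (1.3% higher and 1.62% lower). The members' median was 0.07, beside -0.01 for all genes, and 29 were above 0. AURKA had 373, 328 and 362 CPM in libraries labelled SBI-477, against 325, 350 and 295 CPM in those labelled DMSO (0.13 ± 0.11). The NDC80 values were 72.1, 58.7 and 66.8 CPM for SBI-477 against 73.4, 70.3 and 60.5 CPM for DMSO (-0.05 ± 0.12), and both genes overlapped between the groups. FOXM1 did not overlap, with 94.3, 87.4 and 88.1 CPM in SBI-477 libraries, against 72.2, 76.0 and 63.5 CPM in DMSO libraries (0.35 ± 0.11, edgeR adjusted p = 1.00). CDCA8, KIF23 and KIF18A were also higher in every SBI-477 library, and NUF2 lower, beside 4.76% of all genes that did not overlap above and 4.5% below. For CDCA8 and KIF23 the groups all but touched. Their lowest SBI-477 libraries had 117.86 and 148.98 CPM, and their highest DMSO libraries 117.78 and 148.61 CPM.

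Without replicate 2 of both drug groups, 11 members rose and 2 fell, beside 9.07% and 9.02% of the genes tested. FOXM1 rose by 0.43 ± 0.10 (edgeR adjusted p = 0.0172), CCNA2 by 0.43 ± 0.10 (edgeR adjusted p = 0.0178) and ANLN by 0.38 ± 0.09 (edgeR adjusted p = 0.0180). The others were BIRC5, KIF4A, UBE2C, CCNB1, BUB3, CDCA8, CDK1 and CDC20, by 0.31 to 0.44. ECT2 fell by 0.41 ± 0.09 on the log2 scale (edgeR adjusted p = 0.0138) and INCENP by 0.44 ± 0.10 (edgeR adjusted p = 0.0189). AURKA (0.25), TPX2 (0.18), CENPA (0.07) and NDC80 (0.05), the genes with the highest values after siMondoA or siMLX, did not pass. The authors' deposited table, whose drug columns were matched with replicate 2 exchanged, had 9 members higher and 2 lower (INCENP and ECT2), beside 10.6% and 9.51% of its genes.

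The difference between the drug's effect and the siMondoA effect was tested in 1 fit of all 15 libraries, each against its own control. It was negative and past the threshold for 9 members and positive for none, beside 3.83% and 3.84% of all genes; at an unadjusted p under 0.05 edgeR gave 14 negative and 1 positive, beside 12.9% and 12.6% of genes. DESeq2 called 13 negative and none positive, beside 7.06% and 5.95% of genes. NDC80 had the widest gap, -1.15 ± 0.20 (edgeR adjusted p = 0.00577), followed by TPX2 at -0.94 ± 0.16 (edgeR adjusted p = 0.00532), CENPA at -0.93 ± 0.19 (edgeR adjusted p = 0.0118) and AURKA at -0.86 ± 0.16 (edgeR adjusted p = 0.00664). These 4 stayed called in all 17 alternatives, also without replicate 2 of both drug groups, which left 6 members, all negative, beside 5.52% of genes negative and 6.02% positive. CDC25C, NUF2, KIF2C, CDC25B and NEK2 had -0.79 to -0.57. Against the siMLX effect, 2 members passed, CENPA at -1.06 ± 0.19 (edgeR adjusted p = 0.0126) and NUF2 at -0.75 ± 0.17 (edgeR adjusted p = 0.0371), both negative, beside 0.775% of all genes that were negative and 0.943% positive. The starting levels of the experiments also differed: AURKA averaged 312 ± 31.9 CPM (SD, n = 3) in siMondoA libraries and 154 ± 8.49 CPM in siControl libraries, and 354 ± 23.3 CPM in SBI-477 libraries and 323 ± 27.8 CPM in DMSO libraries. Transfection, depth and experiment cannot be told apart in that offset. Per kilobase of exon, the members' median level was 19.7 CPM per kb in siMondoA, 16.7 in siMLX and 13.6 in siControl libraries, and 28.4 in SBI-477 and 27.1 in DMSO libraries, and CCNB1 was the most abundant member per kb in siControl libraries at 71.3.

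Other mitotic genes outside the 43 were read from a list of 82. After siMondoA 27 rose and 3 fell (14.2% and 12.9% of all genes), with a median of 0.30 beside 0.00 for all genes. After siMLX 18 rose and none fell (3.72% and 4.69% of all genes), with a median of 0.39 beside 0.02. CEP55, an abscission protein, had 81.2, 73.0 and 73.2 CPM after siMondoA and 55.4, 56.5 and 62.9 CPM after siMLX, against 35.8, 35.0 and 38.9 CPM in siControl libraries. It rose by 1.05 ± 0.11 after siMondoA (edgeR adjusted p = 0.000285) and 0.67 ± 0.11 after siMLX (edgeR adjusted p = 0.00573). UBE2S, which extends ubiquitin chains for the anaphase-promoting complex beside UBE2C, rose by 1.18 ± 0.12 after siMondoA (edgeR adjusted p = 0.000310) and 0.74 ± 0.12 after siMLX (edgeR adjusted p = 0.00710). CKAP2L, a spindle protein, rose by 1.84 ± 0.19 after siMondoA (edgeR adjusted p = 0.000289). WEE1, the kinase that holds CDK1 inactive, fell by 0.64 ± 0.14 after siMondoA (edgeR adjusted p = 0.00869) and had -0.05 ± 0.13 after siMLX (edgeR adjusted p = 0.859).

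Of 16 genes for DREAM and MuvB regulators, 5 rose and 3 fell after siMondoA (14.2% and 12.9% of all genes), and 1 fell after siMLX (4.69% of all genes). RBL2, a pocket protein of DREAM, had 22.9, 13.9 and 21.4 CPM after siMondoA and 37.2, 42.5 and 35.5 CPM after siMLX, against 59.0, 67.1 and 61.9 CPM in siControl libraries. The groups were fully separate, with -1.69 ± 0.18 (edgeR adjusted p = 0.000310) after siMondoA and -0.71 ± 0.17 (edgeR adjusted p = 0.0327) after siMLX. LIN54, the MuvB subunit that binds the CHR, rose by 1.23 ± 0.21 after siMondoA (edgeR adjusted p = 0.00337). The replication and G1/S list gave 5 higher and 4 lower of 38 after siMondoA and 1 higher after siMLX (3.72% of all genes), with medians of -0.08 and 0.19. The siMondoA counts of that list are near the shares over all genes. Of 7 CDK inhibitors, CDKN1A was the 1 that rose after siMondoA, beside 14.2% of all genes, and none passed after siMLX. CDKN1A had 15.5, 33.3 and 23.3 CPM after siMondoA and 6.46, 12.4 and 3.66 CPM after siMLX, against 5.24, 4.42 and 4.56 CPM in siControl libraries (2.34 ± 0.40, edgeR adjusted p = 0.00337 for siMondoA). No gene of these 4 lists passed the edgeR test for SBI-477 as labelled.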

How the data were processed

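PSN-1 libraries were made from total RNA with the Kapa system and sequenced as paired 25-base reads, per the labels' protocols. The deposited values are counts per gene symbol. The submitters' processing notes list, without roles, the tools edgeR, HTSeq (0.6.1), TopHat2 (2.1.0) and bcl2fastq (1.8.4) and, as builds, mm10 and hg38. The strand setting was not given in the sources used here. The authors also deposited log2 fold changes, p-values and adjusted p-values for each comparison. Their siRNA columns were matched by DESeq2 with a replicate term, to median absolute differences of 2.21e-13 (siMondoA) and 7.05e-13 (siMLX).

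From the counts, genes were kept with filterByExpr, scaled by TMM and tested with edgeR 4.0.16 (glmQLFit and glmQLFTest, R 4.3.3) with Benjamini-Hochberg adjustment over all genes tested and a threshold of 0.05. The 9 siRNA libraries entered 1 fit (13001 genes), the 6 drug libraries another (14023 genes), and all 15 libraries a joint fit for differences between effects. The SE is the absolute log2 fold change over the square root of F. CPM values used TMM library sizes, and log2 CPM a prior count of 2. Libraries held 11227343 to 30480362 counts. Counting error is widest for the lowest member, SPC24, with 15 to 74 counts in the siRNA libraries. Exon lengths and positions came from GENCODE v29, and promoters from RefSeq.

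The members and all gene lists were chosen with earlier results of these data known. Any member could be named; library values are given for the called members with the 10 smallest adjusted p-values in a comparison and for FOXM1, CDK1, CCNB1, PLK1 and MKI67, and up to 4 genes of each other list. SPC24, SPC25, MAD2L1, KIF20A, CDC20, CHAC1 and the chromosome 20 members were described after their values were seen. In siMLX and siControl, samples with the same replicate number deviated together (correlations of 0.268, 0.188 and 0.359), so those numbers may pair the libraries. The main fits had no replicate term and so ignored any such pairing, and the replicate block was run as an alternative only. Alternatives were other size factors, no filter, a replicate block, DESeq2 1.42.0, only the libraries compared, and each library left out. Leaving replicate 2 of siMLX out of the shared fit for siMondoA was added after seeing the data. Epithelial, immune, endothelial, fibroblast, and acinar and endocrine markers were used as a check of the cell line.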

Additional observations from a re-analysis of the deposited data

Results flagged for a closer look

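For 12 values a test of the difference between effects passed the threshold. TPX2 was higher after siMondoA than after siMLX by 0.43 (log2). The SBI-477 effect was lower than the siMondoA effect by the following log2 differences, in the fit of all 15 libraries as labelled: AURKA -0.86, TPX2 -0.94, CENPA -0.93, NDC80 -1.15, NUF2 -0.75, KIF2C -0.70, CDC25B -0.65, CDC25C -0.79 and NEK2 -0.57. Relative to the siMLX effect, the SBI-477 effect was lower by -1.06 for CENPA and by -0.75 for NUF2. Replicate 2 of both drug groups is in these fits under its labels, and AURKA, TPX2, CENPA, NDC80, NUF2 and CDC25C still passed against siMondoA without it. Against siMondoA, AURKA, TPX2, CENPA and NDC80 held in all 17 alternatives, CDC25C in 14, NUF2 in 12, CDC25B in 9, and KIF2C and NEK2 in 4. Against siMLX, CENPA held in all 17 and NUF2 in 7. The TPX2 difference between the knockdowns held in 5 of 11. The experiments were sequenced to different depths and had different control levels, and the part of these in the differences was not tested.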

How the results depend on the processing

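No called member changed direction under any alternative run. Each library of the groups compared was left out in turn, and the share of all genes called moved as well. Members called numbered 11 to 19 for siMondoA against siControl (13.2% to 29.4% of all genes). They numbered 1 to 18 for siMLX against siControl (1.93% to 6.31%) and 0 to 9 for siMondoA against siMLX (5.08% to 22.5%). The 9 came without siMLX replicate 2, when 22.5% of all genes were called. For the SBI-477 effect minus the siMondoA effect they numbered 4 to 10 (3.05% to 12.04%). These were all negative, except that 2 were positive and 7 negative without siMondoA replicate 1. For the SBI-477 effect minus the siMLX effect they numbered 1 to 2 (0.403% to 2.23%). With the replicate number as a block, 25 members rose and 2 fell after siMondoA (18.1% and 17% of all genes), 17 rose after siMLX (6.52%) and 7 differed between the knockdowns (3 higher and 4 lower after siMondoA, beside 10.4% and 9.65%). Between siMondoA and siControl the same-number correlations were 0.136, 0.088 and 0.008, and between siMondoA and siMLX 0.534, 0.447 and -0.109. The authors' siMondoA column was matched by DESeq2 to a median absolute difference of 2.21e-13 with a replicate term and 0.00657 without it. Whether the same number pairs the siMondoA libraries with the others is not known from these values. Between siMondoA and siMLX, DESeq2 called 3 members (2 higher and 1 lower, beside 8.34% and 7.92% of genes), and no low-count filter or a fit of only the 6 libraries called 0. DESeq2 called 8 for the SBI-477 effect minus the siMLX effect, all negative, beside 1.98% of genes. Leaving out replicate 2 of both drug groups gave 13 for SBI-477 against DMSO. With siMLX replicate 2 left out of the shared fit, added after seeing the data, 23 rose and 1 fell after siMondoA (17.4% and 15.5% of genes). The cause of these moves was not tested. MAD2L1, not called at -0.96 ± 0.38 after siMondoA, passed with the replicate block, DESeq2, only the 6 libraries or siMLX replicate 2 left out of the fit (edgeR or DESeq2 adjusted p = 0.0120, 0.0319, 0.0370 and 0.0233), and SPC24 (-0.91 ± 0.39) with the block (edgeR adjusted p = 0.0303).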
